A study of Rattus norvegicus with 10 samples.

Results

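*Notch1* and *Notch3* encode receptors of the Notch family, and their expression was followed in myoblast cultures made from the soleus muscle of unloaded rats. These are 2 genes of the 32622 in the count table, taken by their Ensembl identifiers, ENSRNOG00000019322 for *Notch1* and ENSRNOG00000004346 for *Notch3*. Both were chosen because the study called them higher after 7 days of unloading than in Control, so their levels in those groups are described here without a test. The study set control cultures against cultures from rats kept in hindlimb suspension (HS), in which the hindlimbs are lifted off the floor and the soleus carries no load, to ask how the duration of unloading affects muscle progenitor cells. All cultures came from 3-month-old male Wistar rats and were sequenced 1 day after pre-plating, the adhesion step that separates satellite cells from fibro-adipogenic progenitors, in a growth medium with serum. The 5 groups were Control (caged, not suspended, day 0) and HS1, HS3, HS7 and HS14, named after the day of suspension on which the muscle was taken, with 2 libraries each. The sources used here leave unsaid whether paired libraries stand for separate rats or separate dishes, so p-values measure only the spread between libraries, which may be technical.

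Notch receptors sit in the cell membrane and are activated by ligands of the Delta and Jagged families on a neighbouring cell. Binding leads to cleavage of the receptor, and its intracellular part enters the nucleus, joins the DNA-binding protein RBPJ and switches on genes of the HES and HEY families of repressors. In skeletal muscle the pathway is known for keeping satellite cells, the stem cells of the fibre, undifferentiated, and Notch3 is also well known as a receptor of vascular smooth muscle cells and pericytes.

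The libraries held between 20200972 and 28175200 counts, and 3 counts, the smallest level taken as detectable, corresponded to between 0.106 and 0.149 CPM. Levels are given in CPM, counts divided by the size of the library, with sizes scaled by the TMM method, whose factors lay between 0.967 and 1.03. The mean level of *Notch1* stood at percentile 35.9 and that of *Notch3* at percentile 65.2 of the 13691 genes with enough counts over all 10 libraries; counts were not divided by gene length, so the levels of the 2 genes are not compared with each other. Among single counts from 1 to 20, between 69.4% and 72.0% were even numbers, as were 9 of the 10 counts of *Notch1* and 6 of the 10 of *Notch3*. Whether reads or read pairs were counted is not given in the sources used here and was not tested, and where both reads of a pair count, 3 counts stand for fewer than 2 fragments and low counts carry less information than they seem to. The counting was not stated to keep reads unique to 1 gene, and the 2 receptors belong to a family of related genes.

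The 250 bases before the start of each receptor gene are shown because the 2 genes share their highest group. The sequences are RefSeq's for the assembly GRCr8, on the minus strand, at chr3:29721614-29721863 for *Notch1* and chr7:11834586-11834835 for *Notch3*, with each match to the GC box GGGCGG, on either strand, in capitals.
Notch1: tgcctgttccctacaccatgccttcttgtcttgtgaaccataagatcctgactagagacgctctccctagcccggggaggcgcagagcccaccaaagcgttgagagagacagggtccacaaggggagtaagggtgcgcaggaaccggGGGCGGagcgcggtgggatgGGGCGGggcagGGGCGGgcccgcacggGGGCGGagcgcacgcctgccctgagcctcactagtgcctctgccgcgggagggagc
Notch3: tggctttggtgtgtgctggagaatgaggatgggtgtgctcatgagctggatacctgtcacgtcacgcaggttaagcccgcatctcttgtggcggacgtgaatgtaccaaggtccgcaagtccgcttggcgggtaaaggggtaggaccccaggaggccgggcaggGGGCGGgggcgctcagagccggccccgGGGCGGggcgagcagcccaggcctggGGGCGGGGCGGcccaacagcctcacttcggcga
Each window held 4 matches to the GC box, of which the last pair in *Notch3* overlaps, and 67.6% of the bases in each were G or C. A match was present in 32.1% of the 27457 promoter windows of this length, and 4 or more in 3.90% of them. These windows were not matched for their share of G and C, on which matches to this motif depend. The motif was added after the sequences had been seen, so nothing is read from its matches. The core of the RBPJ site, TGGGAA, and the E-box CANNTG, the site of myogenic factors such as myogenin, had no match on either strand in either window, beside 21.6% and 65.4% of all windows. The site of HES and HEY repressors, CACGNG, had 1 match before *Notch1*, overlapping the GC box nearest to the start, and none before *Notch3*, beside 22.9% of all windows.

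*Notch3* was lowest after 1 day of suspension and highest after 7 days. Its level was 29.6 and 33.3 CPM in Control, 15.1 and 15.9 CPM at HS1, 29.0 and 27.4 CPM at HS3, 139.5 and 132 CPM at HS7, and 78.7 and 56.5 CPM at HS14. No 2 groups overlapped, although the gap between HS3 and Control was smaller than the difference between the Control libraries. The share of all genes without any such overlap was not counted, so nothing is read from the separation. Ordered by mean and SD of 2 libraries, HS1 stood at 15.5 ± 0.579 CPM, HS3 at 28.2 ± 1.11 CPM, Control at 31.5 ± 2.66 CPM, HS14 at 67.6 ± 15.7 CPM and HS7 at 136 ± 5.32 CPM. HS7 was thus 4.33 times Control (log2 fold change 2.11, standard error 0.07), and HS14 was 2.15 times Control (log2 fold change 1.10, standard error 0.16). HS1 differed from Control by -1.02 on the log2 scale (standard error 0.10) and HS3 by -0.17 (standard error 0.11). The HS14 libraries were the most uneven of the 5 pairs, and without the first of them the log2 fold change of HS14 against Control was 0.84. Both HS7 libraries stood above the other 8 for 14.3% of all genes and both HS1 libraries below the other 8 for 11.3%; *Notch3* was in both sets. Both HS14 libraries stood above both Control libraries for 35% of genes and below for 34.9%, and both HS1 libraries above for 29.8% and below for 30.9%. For 48.8% of genes both libraries of at least 1 time stood above and both of another time below both Control libraries, as for *Notch3*.

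*Notch1* stood apart in HS7 only, and the other 4 groups overlapped. Its level was 7.51 and 6.52 CPM in Control, 9.89 and 6.18 CPM at HS1, 7.42 and 9.86 CPM at HS3, 26.1 and 18.0 CPM at HS7, and 10.3 and 7.41 CPM at HS14. As mean and SD of 2 libraries, Control stood at 7.02 ± 0.699 CPM, HS1 at 8.04 ± 2.62 CPM, HS3 at 8.64 ± 1.72 CPM, HS14 at 8.85 ± 2.05 CPM and HS7 at 22.0 ± 5.70 CPM. Each of the first 4 means differed from the next by less than the SD of either HS1, HS3 or HS14, so their order is not settled. HS7 was 3.15 times Control (1.65 on the log2 scale, standard error 0.17), and this log2 value ranged from 1.36 to 1.89 when single libraries were omitted. The other groups differed from Control by 0.20 in HS1 (standard error 0.20), 0.30 in HS3 (standard error 0.18) and 0.34 in HS14 (standard error 0.17) on the log2 scale. The difference in HS1 was -0.18 without its first library.

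**Figure D1:**
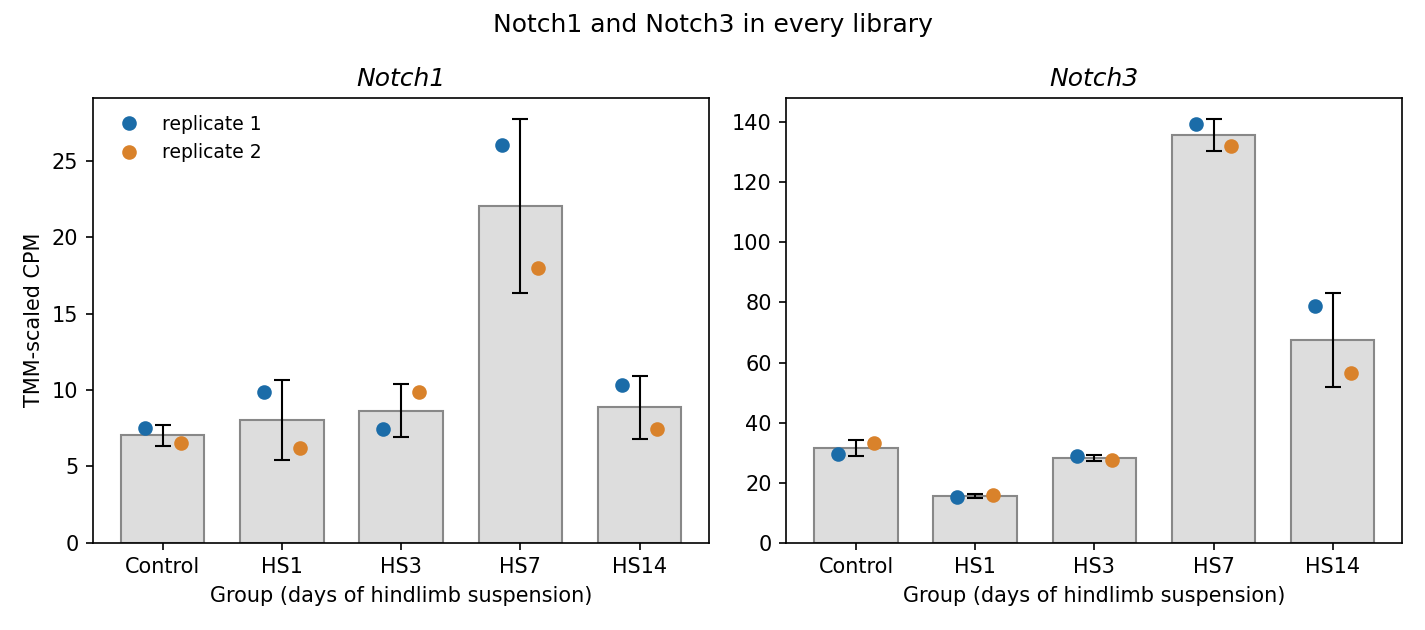
TMM-scaled CPM (linear axes from 0) of *Notch1* and *Notch3* in Control, HS1, HS3, HS7 and HS14; points are the 2 libraries, bars their mean and error bars their SD. *Notch1* reaches 22.0 CPM in HS7 and lies between 7.02 and 8.85 CPM elsewhere, while *Notch3* runs from 15.5 CPM in HS1 to 136 CPM in HS7 and stays at 67.6 CPM in HS14.

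The 2 HS7 libraries differed more in *Notch1* than in *Notch3*. Replicate 1 was higher than replicate 2 by 0.53 on the log2 scale for *Notch1* and by 0.08 for *Notch3*. In Control, HS1, HS3 and HS14, replicate 1 minus replicate 2 was 0.20, 0.68, -0.41 and 0.48 for *Notch1*. For *Notch3* it was -0.17, -0.08, 0.08 and 0.48. The gap of *Notch1* in HS7 was thus no larger than its gap in HS1. Over 9 of 11 myogenic differentiation genes with a symbol, such as the embryonic myosin *Myh3* and the cardiac actin *Actc1*, the median of the same difference was 0.81 in HS7 and lay between -0.06 and 0.11 in the other groups. The summed level of these 9 genes was 1483 to 1553 CPM in Control, 985 to 1106 CPM at HS1, 3362 to 3494 CPM at HS3, 5664 to 9519 CPM at HS7 and 1020 to 1090.4 CPM at HS14. A symbol was at hand only for genes that the study called against Control, and the receptors were chosen as high in HS7. A shared peak in HS7 is favoured by that choice, so nothing is read from it. The summed level was highest in HS7, like both receptors, but in HS14 it was below Control, where *Notch3* was above. The part of this difference in the receptor levels was not tested.

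Comparisons among HS1, HS3 and HS14 share no library with the contrast that chose the genes, and they were tested with the quasi-likelihood fit of edgeR at an adjusted p under 0.01, where p-values were adjusted over every gene in the fit (Benjamini-Hochberg). *Notch3* rose from HS1 to HS3 by 0.86 on the log2 scale (standard error 0.13, edgeR adjusted p = 1.53e-06), where 17.2% of 13008 genes passed as higher in HS3 and 13.3% as lower. It was higher in HS14 than in HS1 by 2.10 (standard error 0.14, edgeR adjusted p = 7.93e-08), where 12% of 13015 genes passed as higher in HS14 and 12.8% as lower. It was also higher in HS14 than in HS3 by 1.24 (standard error 0.13, edgeR adjusted p = 3.15e-06), where 13.8% of 13103 genes passed as higher and 18.1% as lower. In all 3 comparisons the libraries of the groups did not overlap, which was not counted over all genes. The call held in every other fit tried.

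*Notch1* passed in none of these 3 comparisons in edgeR. Its log2 fold change was 0.11 between HS3 and HS1 (standard error 0.21, edgeR adjusted p = 0.705), 0.12 between HS14 and HS1 (standard error 0.21, edgeR adjusted p = 0.693) and 0.01 between HS14 and HS3 (standard error 0.19, edgeR adjusted p = 0.963). The libraries of the groups overlapped each time, and the sign changed when single libraries were left out, so neither a rise nor a fall could be detected between the 2 libraries of each group. DESeq2 gave adjusted p of 0.820, 0.815 and 0.977 for the same comparisons.

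**Figure D2:**
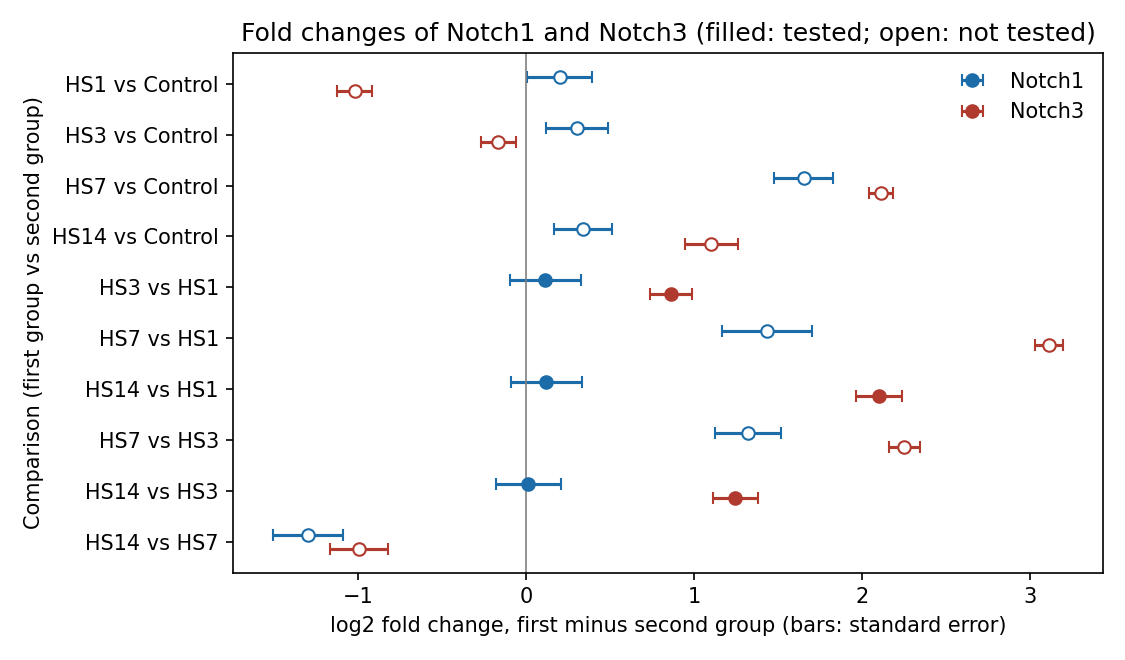
log2 fold changes of *Notch1* and *Notch3* in the 10 pairs of groups, first minus second group, with the standard error from edgeR. Filled points mark the 3 tested comparisons, in which *Notch3* lies at 0.86, 2.10 and 1.24 and *Notch1* between 0.01 and 0.12; open points use libraries of the contrast that chose the genes.

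Within a library, the ratio of the *Notch3* count to the *Notch1* count does not depend on library size. The Control libraries gave ratios of 3.94 and 5.11, those of HS1 gave 1.53 and 2.58, those of HS3 gave 3.90 and 2.78, those of HS7 gave 5.35 and 7.33, and those of HS14 gave 7.64 and 7.63. The lowest ratios were thus in HS1, which did not overlap any other group, although its 2.58 lay close to the 2.78 of HS3. The highest were in HS14, where *Notch1* was near its Control level and *Notch3* was not. The mean log2 ratio was 0.99 ± 0.53 (SD, n = 2) in HS1, 1.72 ± 0.35 in HS3, 2.17 ± 0.27 in Control, 2.65 ± 0.32 in HS7 and 2.93 ± 0.00092 in HS14. HS7 and HS14 differed by less than the SD of HS7. The small SD of HS14 rests on 2 libraries with 298 and 176 *Notch1* counts, and does not show that the ratio is known so precisely. The ratio was not tested, and it says nothing about which receptor has more transcripts, because counts were not divided by transcript length.

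**Figure D3:**
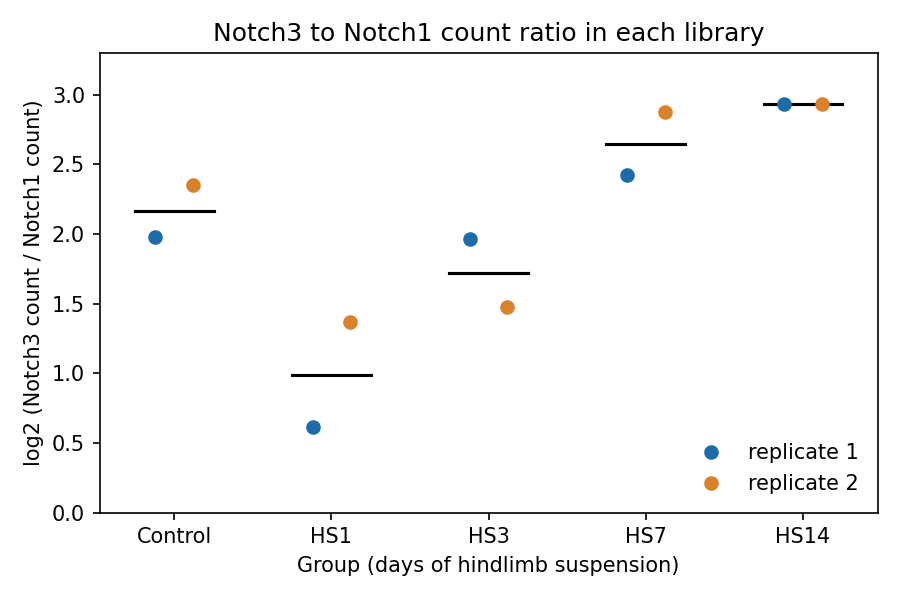
log2 of the ratio of *Notch3* to *Notch1* counts in each library, with the mean of the 2 libraries of a group as a line. The mean log2 ratio is lowest in HS1 (0.99) and highest in HS14 (2.93), where both libraries coincide.

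Of 61 genes of the Notch pathway written down by name, 7 could be found in the table, because a symbol is at hand only for the 770 identifiers that the study called in some comparison with Control. The receptors *Notch2* and *Notch4*, the Jagged ligands, *Hes1* and *Hey1* were not analysed here. The 7 genes were chosen on these samples and are no independent evidence of a direction, and a gene was tested only in comparisons that used none of the groups in which it was called. All 7 had enough counts to be fitted in each comparison.

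*Heyl*, a HEY-family repressor that Notch signalling switches on, followed *Notch3* closely. Its level was 51.2 and 47.7 CPM in Control, 25.9 and 29.4 CPM at HS1, 48.4 and 52.7 CPM at HS3, 203.8 and 195 CPM at HS7, and 100.1 and 79.9 CPM at HS14. As with *Notch3*, HS1 lay below all other libraries and HS7 above, and only Control and HS3 overlapped. *Heyl* rose from HS1 to HS3 by 0.88 (standard error 0.11, edgeR adjusted p = 1.1e-07), was higher in HS14 than in HS1 by 1.68 (standard error 0.10, edgeR adjusted p = 2.13e-09), and was higher in HS14 than in HS3 by 0.81 (standard error 0.10, edgeR adjusted p = 8.5e-07). Its log2 difference from Control was -0.84 for HS1, 0.03 for HS3, 2.02 for HS7 and 0.86 for HS14.

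*Hey2*, a second repressor of the HEY family, was expressed at a low level. It had 0.593 and 0.607 CPM in Control, 1.23 and 0.871 CPM at HS1, 0.508 and 0.477 CPM at HS3, 2.67 and 3.63 CPM at HS7, and 2.28 and 2.19 CPM at HS14. Unlike *Notch3* and *Heyl*, it was not below Control in HS1. Between HS3 and HS1 it differed by -1.08 on the log2 scale with a standard error of 0.55, which did not pass (edgeR adjusted p = 0.113).

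*Dll1*, a Delta-type ligand, had 6.96 and 5.69 CPM in Control, 2.37 and 1.83 CPM at HS1, 7.11 and 9.34 CPM at HS3, 20.0 and 16.7 CPM at HS7, and 6.33 and 5.72 CPM at HS14. It was lowest in HS1 and highest in HS7, like *Notch3*, but in HS14 it overlapped Control, like *Notch1*. Between HS14 and HS3 it differed by -0.47 on the log2 scale with a standard error of 0.19, which did not pass (edgeR adjusted p = 0.0506). *Dlk1*, a Delta-like protein that lacks the receptor-binding domain of the classical ligands, went another way. It had 9.41 and 8.42 CPM in Control, 1.06 and 1.74 CPM at HS1, 33.6 and 41.9 CPM at HS3, 0.973 and 0.632 CPM at HS7, and 0.899 and 0.674 CPM at HS14. It thus was highest in HS3, and in HS7, where both receptors peaked, it was near its lowest level.

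*Dtx4*, one of the Deltex ubiquitin ligases that bind Notch receptors, had 3.87 and 2.88 CPM in Control, 2.17 and 1.74 CPM at HS1, 1.78 and 1.11 CPM at HS3, 10.4 and 9.63 CPM at HS7, and 6.53 and 7.16 CPM at HS14. Both HS14 libraries stood above both Control libraries, as for *Notch3*. It was higher in HS14 than in HS1 by 1.78 (standard error 0.23, edgeR adjusted p = 9.14e-06) and than in HS3 by 2.24 (standard error 0.27, edgeR adjusted p = 2.04e-07), while HS3 and HS1 did not differ beyond the threshold (log2 fold change -0.45, standard error 0.39, edgeR adjusted p = 0.374).

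The windows before *Dll1* and *Hey2* are shown because both held the RBPJ core TGGGAA, which the receptors' windows lacked. They are RefSeq's for GRCr8, at chr1:64993275-64993524 on the minus strand and chr1:28640850-28641099 on the plus strand, with each match on either strand in capitals.
Dll1: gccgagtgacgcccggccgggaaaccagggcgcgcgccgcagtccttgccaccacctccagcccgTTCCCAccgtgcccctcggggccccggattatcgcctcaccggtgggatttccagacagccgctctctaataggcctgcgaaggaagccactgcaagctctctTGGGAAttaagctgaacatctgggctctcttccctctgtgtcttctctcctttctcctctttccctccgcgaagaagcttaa
Hey2: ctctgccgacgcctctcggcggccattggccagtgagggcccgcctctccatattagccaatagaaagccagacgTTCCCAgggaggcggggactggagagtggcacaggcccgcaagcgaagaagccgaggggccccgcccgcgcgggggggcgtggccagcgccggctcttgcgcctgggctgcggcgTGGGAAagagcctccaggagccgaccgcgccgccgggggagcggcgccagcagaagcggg
Each held 2 matches, and the windows before *Heyl* and *Dtx4* held none. A match was present in 21.6% of all windows, and the share with at least 2 was not counted. The 2 windows were picked for their matches, so nothing is read from them.

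**Figure D4:**
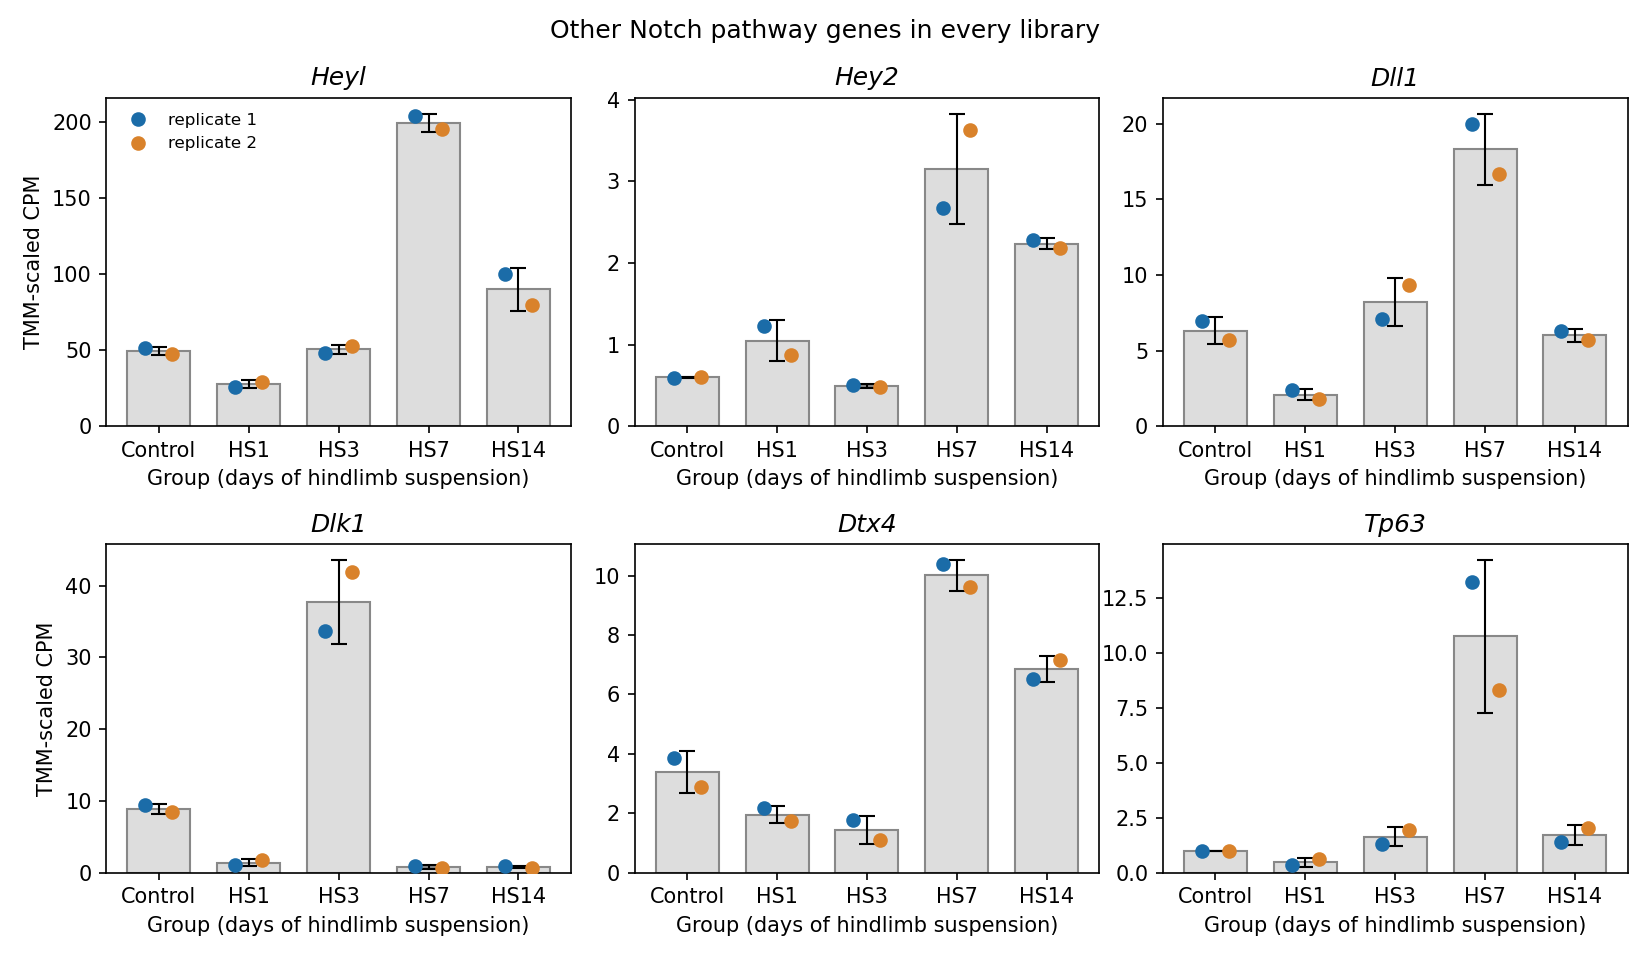
TMM-scaled CPM (linear axes from 0, scaled per gene) of *Heyl*, *Hey2*, *Dll1*, *Dlk1*, *Dtx4* and *Tp63* in each group; points are the 2 libraries, bars their mean and error bars their SD. *Heyl* is lowest in HS1 and highest in HS7, whereas *Dlk1* is highest in HS3 and near 1 CPM in HS7 and HS14.

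In the comparison of HS3 with HS1, 5 of the 7 pathway genes could be tested and 2 rose, *Notch3* and *Heyl*, beside 17.2% of all genes. Between HS14 and HS1, 3 of 4 were higher in HS14, beside 12% of all genes. Between HS14 and HS3 it was 3 of 5, beside 13.8%, each time *Notch3*, *Heyl* and *Dtx4*. None was lower past the threshold in edgeR, beside 13.3%, 12.8% and 18.1% of all genes in these comparisons. The median log2 fold change of the 7 genes against Control was -0.84 for HS1, 0.03 for HS3, 1.65 for HS7 and 0.86 for HS14, where the median of all genes lay within 0.01 of 0 at each time. In HS7, 6 of the 7 were higher than in Control, which the choice of these genes fixes, and all genes divided into 35.8% with both HS7 libraries above both Control libraries and 36.6% with both below. Both HS14 libraries stood below both HS7 libraries for 6 of the 7, beside 34% of all genes, and for *Dlk1* the groups overlapped (log2 fold change -0.01, standard error 0.48). Choosing genes that were high in HS7 favours this direction, so nothing is read from it.

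The study's Notch signalling term holds *Notch1*, *Notch3*, *Dll1*, *Dtx4*, *Hey2*, *Heyl* and 5 further genes. *Tp63*, a transcription factor of the p53 family, had 0.987 ± 0.00161 CPM (SD, n = 2) in Control and 10.8 ± 3.48 CPM in HS7, and its HS14 level of 1.70 ± 0.451 CPM was close to that of HS3, 1.63 ± 0.443 CPM. *Tp63* was higher in HS3 than in HS1 by 1.82 (standard error 0.51, edgeR adjusted p = 0.00491), where the HS1 libraries held only 8 and 14 counts. It was also higher in HS14 than in HS1 by 1.83 (standard error 0.48, edgeR adjusted p = 0.00575). Between HS14 and HS3 it did not pass (edgeR adjusted p = 0.984). *Tgfb2*, a TGF-β ligand, stood at 191 ± 0.0264 CPM in Control, 554 ± 18.3 CPM in HS7 and 245 ± 4.31 CPM in HS14, and was higher in HS14 than in HS1 by 0.39 (standard error 0.06, edgeR adjusted p = 2.19e-05). *Tgfb2* did not pass between HS3 and HS1 (edgeR adjusted p = 0.486) or between HS14 and HS3 (edgeR adjusted p = 0.0369). *Postn*, the matrix protein periostin, was high in HS3 (429.6 ± 29.9 CPM) as well as in HS7 (536 ± 102 CPM), but was below Control in HS14 (88.2 ± 7.48 CPM). *Postn* was higher in HS14 than in HS1 by 0.31 (standard error 0.07, edgeR adjusted p = 0.00325). *Tspan15*, a tetraspanin that partners the receptor-cleaving protease ADAM10, fell from HS1 to HS3 by 1.6 on the log2 scale (standard error 0.39, edgeR adjusted p = 0.00118) and stood at 5.11 ± 0.810 CPM in HS7. *Tspan15* did not pass between HS14 and HS1 (edgeR adjusted p = 0.237) or HS14 and HS3 (edgeR adjusted p = 0.026). *Grip2*, a scaffold protein of glutamate receptors, had 0.351 ± 0.175 CPM in Control and 1.94 ± 0.234 CPM in HS7. It did not pass between HS14 and HS1 or HS3 (edgeR adjusted p = 0.157 and 0.551). Of the term's tested genes, 3 of 8 were higher and 1 lower in HS3 than in HS1, beside 17.2% and 13.3% of all genes. In HS14, 6 of 9 were higher than in HS1, beside 12%, and 3 of 9 higher than in HS3, beside 13.8%.

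Genes with the most similar pattern were sought by Pearson correlation of log2 CPM over the 10 libraries among 260 other genes with a symbol and a mean log2 CPM of at least 3. All of these were called by the study, the libraries fall into 5 groups, and no p is given. For *Notch3* the highest r was that of *Heyl* (0.99), followed by *Lrrn1* (0.98), *Hmcn1* (0.95) and *Cpa1* (0.95). For *Notch1* it was that of *Afap1l1* (0.95), followed by *Nexn* (0.93), *Prss23* (0.92), *Frmd4b* (0.91) and *Pkia* (0.90). *Lrrn1* encodes a leucine-rich repeat membrane protein, and *Nexn* encodes nexilin, an actin-binding protein of the sarcomere's Z-disc. *Lrrn1* had 28.8 ± 0.106 CPM (SD, n = 2) in Control, 14.5 ± 1.96 CPM in HS1 and 118 ± 4.91 CPM in HS7, and *Nexn* had 60.1 ± 6.36 CPM in Control, 57.9 ± 0.0798 CPM in HS1 and 169.8 ± 39.7 CPM in HS7. The 2 receptors had an r of 0.77 with each other, and no gene stood in both lists.

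**Figure D5:**
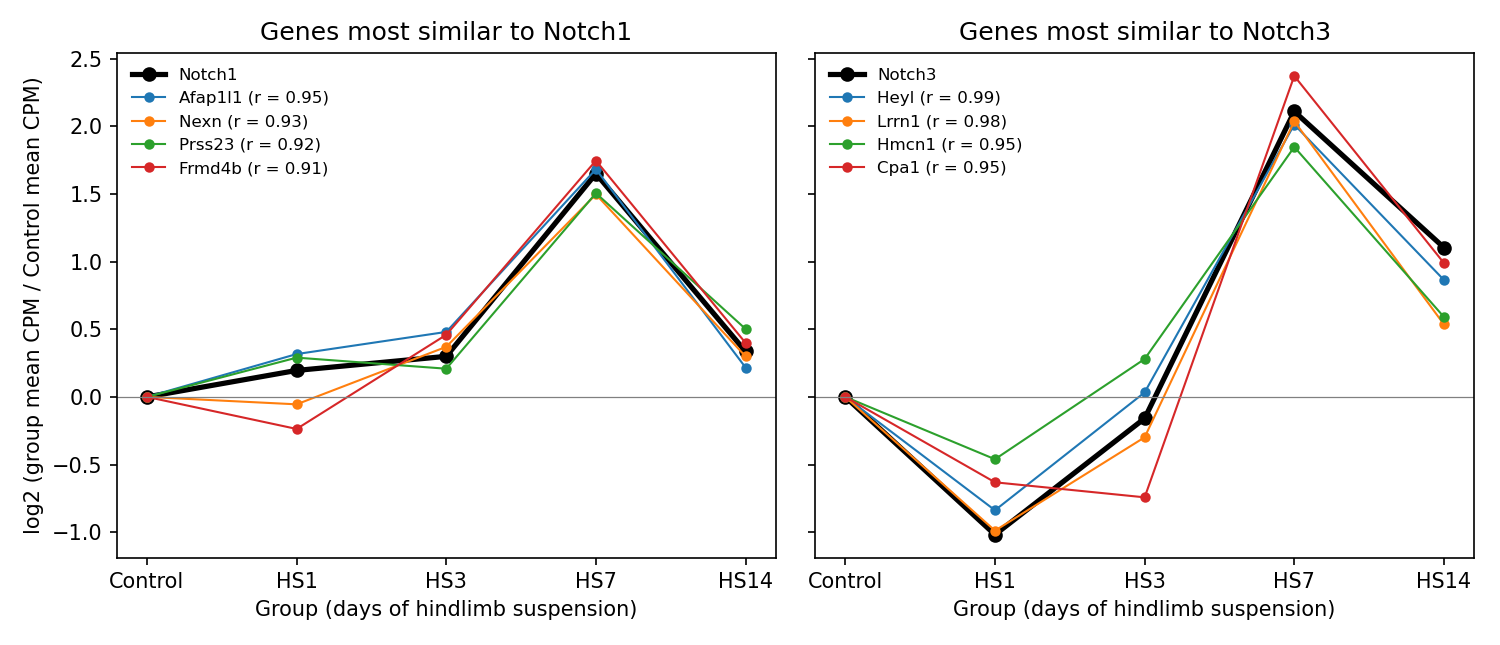
log2 of each group's mean CPM over the Control mean for *Notch1* and *Notch3* (thick black lines) and the 4 genes with the highest Pearson r to each over 10 libraries. All genes shown have their highest mean in HS7, and the 4 genes like *Notch3* have a lower mean in HS1 than in Control.

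The labels call the cells skeletal muscle progenitor cells, and the defining satellite cell marker *Pax7* was not analysed here; *Myog*, an early differentiation factor of myoblasts, had between 107 and 883 CPM per library. Notch receptors are also expressed by endothelial and mural cells, whose markers are given for that reason. A marker has a symbol here only if the study called it in a comparison with Control. A difference of a marker or a sum from Control is favoured by that choice. Nothing is read from a direction that it shares with a receptor. Of 10 endothelial markers 6 had a symbol, and their summed level was 2.37 to 4.85 CPM in Control, 1.39 to 1.48 CPM at HS1, 8.39 to 9.35 CPM at HS3, 9.0 to 11.7 CPM at HS7 and 15.3 to 16.8 CPM at HS14. *Cdh5*, the endothelial cadherin, had 0.237 and 0.152 CPM in Control, 3.24 and 1.97 CPM in HS7, and 5.15 and 4.42 CPM in HS14. *Kdr*, a receptor for vascular endothelial growth factor, had 1.74 and 3.41 CPM in Control, 0.572 and 0.784 CPM at HS1, 8.03 and 6.80 CPM at HS3, 3.32 and 2.92 CPM at HS7, and 3.18 and 3.20 CPM at HS14, and made up most of the sum in HS3. The other 4, given as group means for Control, HS7 and HS14, were *Tie1* with 0.461, 1.85 and 3.36 CPM, *Vwf* with 0.267, 1.58 and 2.46 CPM, *Emcn* with 0.0379, 0.599 and 0.897 CPM, and *Esam* with 0.0758, 0.605 and 1.39 CPM. *Emcn* was at 0 in both HS1 libraries. The summed endothelial level was thus above Control in HS7 and HS14, as *Notch3* was, and also in HS3, where *Notch3* was below Control, and it was highest in HS14 and not in HS7. Of 10 mural markers 2 had a symbol. *Pdgfrb*, which fibroblasts also express, had 165 to 170.4 CPM in Control, 57.1 to 57.9 CPM at HS1, 348 to 382 CPM at HS3, 85.4 to 121 CPM at HS7 and 95.9 to 102 CPM at HS14. *Rgs5*, a defining pericyte gene, was at 0 in both Control libraries and had 0.324 and 0.355 CPM in HS7 and 1.28 and 1.14 CPM in HS14. Of 10 fibro-adipogenic markers 7 had a symbol, with *Col1a1* and *Thy1* the most abundant and *Col1a1* making up most of the sum, which was 7337 to 7819 CPM in Control, 2407 to 2409 CPM at HS1, 15496 to 19498 CPM at HS3, 8282 to 8313 CPM at HS7 and 2801 to 2991 CPM at HS14. Single members went other ways. *Dcn*, the matrix proteoglycan decorin, had 163 ± 3.87 CPM (SD, n = 2) in Control, 37.6 ± 0.588 CPM at HS1, 77.6 ± 3.78 CPM at HS3, 270.4 ± 49.6 CPM at HS7 and 447 ± 10.7 CPM at HS14, and so lay below and above Control at the same times as *Notch3*. *Lum*, the related lumican, had 6.93 ± 0.368 CPM in Control, 0.852 ± 0.396 CPM at HS1, 12.2 ± 1.57 CPM at HS3, 13.0 ± 1.91 CPM at HS7 and 9.5 ± 0.379 CPM at HS14. *Pdgfra*, *Thy1* and *Osr1* lay below Control in HS7 and HS14, unlike *Notch3*. Their group means in Control, HS7 and HS14 were 148, 62.5 and 58.1 CPM, 479, 160 and 72.6 CPM, and 7.60, 0.924 and 1.27 CPM. *Dpt* had 3.50, 5.04 and 1.42 CPM in the same groups. Of 6 Schwann cell markers 2 had a symbol, *S100b* and *Ngfr*, with a sum of 14.0 to 15.9 CPM in Control, 2.53 to 3.31 CPM at HS1, 33.7 to 35.5 CPM at HS3, 7.30 to 8.83 CPM at HS7 and 8.46 to 8.75 CPM at HS14. The 2 genes went opposite ways against Control in HS7 and HS14. Group means in Control, HS7 and HS14 were 14.2, 6.06 and 4.54 CPM for *S100b* and 0.735, 2.01 and 4.06 CPM for *Ngfr*. Macrophage and proliferation markers were not analysed here. The part of these cell types in the receptor levels was not tested, and in bulk cultures fewer cells of a type and less RNA per cell cannot be told apart.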

How the data were processed

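Polyadenylated RNA was sequenced in 10 libraries from a stranded kit. The authors made the deposited counts per gene by checking reads with FastQC 0.11.9, aligning them with STAR (2.7 in the submitters' notes) and counting with featureCounts 1.6.4. The methods name the genome mRatBN7.2 and the notes Rnor_6.0, so no coordinates of that build are printed. Symbols came from the study's list of called genes, by Ensembl identifier. The authors' fold changes and p-values were not used.

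Counts were scaled by TMM, filtered by filterByExpr and tested with edgeR 4.0.16 (robust quasi-likelihood, R 4.3.3) in fits of the 4 libraries compared. Adjusted p-values (Benjamini-Hochberg) under 0.01 over all genes were calls. Standard errors are the fold change over the square root of F. DESeq2 1.42.0 and other settings were alternatives, and limma 3.58.1 was installed with edgeR. The tests were checked on simulated data with the same dispersion for all genes. That dispersion was not fitted to these libraries, so the check does not vouch for calls on genes that vary more. The members, gene lists and tests were chosen with earlier results of these data known. Named genes were the 2 receptors, the ligands, HES and HEY genes of the pathway list with a symbol, others of that list that passed against Control, the 2 most abundant genes of each other list and the 5 genes most correlated with each receptor over 10 libraries (log2 CPM, prior count 2). The remaining genes of the study's term and of the marker lists were named after their values were seen. Of the genes most correlated with *Notch3*, 1 is not reported here. Libraries of a group differed by a chi-square per gene of 3.61 to 12.2, so none was a duplicate. Floors of 3 counts cover counting error only.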

Additional observations from a re-analysis of the deposited data

Results flagged for a closer look

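For 6 of the 7 Notch pathway genes with a symbol, both libraries of one time of suspension stood above both Control libraries while both libraries of another time stood below them. The same held for 48.8% of all 13691 genes, and some of the gaps were small, such as a log2 fold change against Control in HS3 of -0.17 (standard error 0.11) for *Notch3* and -0.29 (standard error 0.55) for *Hey2*. Each value below is the log2 fold change between the 2 times, from the fit of their 4 libraries. It has edgeR's quasi-likelihood adjusted p where the groups had no part in choosing the gene. The remaining differences were not tested.

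*Notch3* was above Control in HS7 and HS14 and below it in HS1 and HS3. The difference was 3.11 between HS7 and HS1 and 2.25 between HS7 and HS3, both not tested. It was 2.10 between HS14 and HS1 (edgeR adjusted p = 7.93e-08) and 1.24 between HS14 and HS3 (edgeR adjusted p = 3.15e-06). *Heyl*, the HEY-family repressor, was above Control in HS7 and HS14 and below it in HS1, with a difference of 2.84 between HS7 and HS1, not tested, and of 1.68 between HS14 and HS1 (edgeR adjusted p = 2.13e-09).

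*Dtx4*, the Deltex gene, was above Control in HS7 and HS14 and below it in HS1 and HS3. Its differences were 2.34 between HS7 and HS1 and 2.79 between HS7 and HS3, not tested, and 1.78 between HS14 and HS1 (edgeR adjusted p = 9.14e-06) and 2.24 between HS14 and HS3 (edgeR adjusted p = 2.04e-07). *Hey2* was above Control at each time except HS3. The difference between HS1 and HS3, 1.08, did not pass (edgeR adjusted p = 0.113), and those of 2.65 between HS7 and HS3 and 2.15 between HS14 and HS3 were not tested. *Hey2* had between 10 and 92 counts per library.

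The ligand *Dll1* was above Control in HS3 and HS7 and below it in HS1, by a difference of 1.98 between HS3 and HS1 and 3.10 between HS7 and HS1. *Dlk1* was above Control in HS3 and below it at the other times, by a difference of 4.76 between HS3 and HS1, 5.57 between HS3 and HS7 and 5.58 between HS3 and HS14. None of the differences of these 2 genes was tested. The summed level of 7 fibro-adipogenic markers, most of it *Col1a1*, was also highest in HS3 (15496 to 19498 CPM) and lowest in HS1 (2407 to 2409 CPM). In the same list *Dcn* was below Control in HS3 (77.6 against 163 CPM) and highest in HS14 (447 CPM), and *Lum* had 12.2 CPM in HS3 and 13.0 CPM in HS7. Like *Dlk1*, these markers have a symbol only because the study called them against Control, so nothing is read from the shared pattern. The part of these markers in the *Dlk1* level was not tested.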

How the results depend on the processing

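The group levels of the 2 receptors moved by less than 1 SD under other size factors and under library totals alone. The 3 calls for *Notch3* among HS1, HS3 and HS14 held with DESeq2, other size factors, no expression filter, 1 fit of all 10 libraries and each library left out (lone libraries were then assumed to vary like the others), with adjusted p up to 7.65e-05. Of 180 other fits of the members' fold changes, 169 held, all with the same direction. In tested comparisons they also kept the call, whatever the size, and in the rest the size stayed within the spread between libraries. The others, all by leaving out 1 library, changed sign (7) or moved by more than that spread. Over these, the log2 fold change of *Notch1* ranged from -0.18 to 0.50 for HS1 against Control, 1.36 to 1.89 for HS7 against Control, 0.074 to 0.55 for HS14 against Control, -0.18 to 0.49 for HS3 against HS1, -0.17 to 0.50 for HS14 against HS1 and -0.25 to 0.23 for HS14 against HS3. The sign turned for HS1 against Control without the first HS1 library (-0.18), for HS3 against HS1 without the second HS1 library (-0.18) or the second HS3 library (-0.11), for HS14 against HS1 without the second HS1 library (-0.17) or the first HS14 library (-0.14), and for HS14 against HS3 without the first HS3 library (-0.17) or the first HS14 library (-0.25). *Notch3* ranged from 0.84 to 1.32 for HS14 against Control and from -1.26 to -0.78 for HS14 against HS7. In tested comparisons it ranged from 1.84 to 2.32 for HS14 against HS1, from 0.98 to 1.46 for HS14 against HS3 and from 0.82 to 0.91 for HS3 against HS1. The cause was not tested. With the replicate number as a block, *Notch3* differed by 0.86 between HS3 and HS1, 2.09 between HS14 and HS1 and 1.22 between HS14 and HS3, and no call changed. Same-numbered libraries did not deviate together from their group means (r from -0.02 to 0.04 over 10 pairs of groups), so the numbers were not taken to pair them. With 2 libraries a group, small differences of *Notch1* could not be detected.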

Other observations

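The 3 genes linked to quiescent satellite cells that had a symbol, of 12 on that list, did not share 1 pattern. *Cdkn1c*, the cell cycle inhibitor p57, had 5.41 ± 0.608 CPM (SD, n = 2) in Control, 1.53 ± 0.665 CPM at HS1, 5.91 ± 1.75 CPM at HS3, 59.1 ± 27.2 CPM at HS7 and 8.11 ± 0.321 CPM at HS14. *Col5a3*, a collagen V chain, was likewise lowest in HS1 (101 ± 8.68 CPM) and highest in HS7 (583 ± 96.2 CPM), with 206 ± 4.87 CPM in Control. *Col6a1*, a collagen VI chain, was highest in HS3 (1312 ± 200.2 CPM) and stood at 445 ± 56.0 CPM in HS7 and 573 ± 19.4 CPM in Control. HS1 was the lowest group for all 3, as it was for *Notch3*, and both HS1 libraries stood below the other 8 for 11.3% of all genes. The 3 genes have a symbol only because the study called them against Control, so nothing is read from the shared low level.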
